A study of Mus musculus with 6 samples.

Results

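The long intergenic noncoding RNAs (lincRNAs) that mouse hepatocytes expressed were compared between undamaged liver and liver regenerating after partial hepatectomy (PHx), an operation that takes away most of the liver. GENCODE release M21 types 5854 of the 55450 genes counted as lincRNA, and 2128 of these had at least 1 count in any library. The 258 genes described here averaged 1 CPM or more across the 6 libraries, where CPM is a gene's count per 1000000 counts on genes in that library. Neat1, Malat1, Gas5, Snhg1, Snhg3, Snhg12 and Kcnq1ot1 were left out by name, and 3 of them (Snhg12, Neat1 and Malat1) would have met the rule. The mean over both time points chose the genes, so their expression level is a description. The difference between time points was not used, but some genes reached that mean through a single time point, as counted below. Just inside the threshold were 5033430I15Rik at 1.02 CPM and Gm26773 and Gm43848 at 1.01 CPM each. Just outside were Gm26546 at 0.994 CPM, Gm26664 at 0.974 CPM and 1810044D09Rik at 0.973 CPM.

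Bulk RNA-Seq was performed on primary hepatocytes from C57BL/6 mice (C57BL/6J in the study's methods), with 3 libraries from undamaged liver (0 hours) and 3 from liver 48 hours after PHx. The labels give an age of 10 to 12 weeks and a normal diet for both groups, and the study's methods describe slightly younger male mice. The undamaged livers had no sham operation, so effects of surgery and anesthesia cannot be told apart from those of the loss of liver tissue. Total RNA was extracted with TRIzol after the livers had been digested with collagenase, which releases hepatocytes along with a small share of other liver cells. Library totals of gene counts lay between 31419443 and 36346220 at 0 hours and between 31684152 and 33093006 at 48 hours.

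LincRNAs are transcribed from DNA between protein-coding genes, mostly by RNA polymerase II, and many are capped, spliced and polyadenylated like mRNAs. Some act as RNAs, by recruiting chromatin or RNA-binding proteins or by sequestering them. Others are precursors of microRNAs or small nucleolar RNAs, and for others the act of transcription affects a neighboring gene. Many are short-lived and restricted to a cell type, and the nuclear exosome removes unstable noncoding transcripts. Hepatocytes leave quiescence and divide after PHx, and 48 hours lies within that period.

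More lincRNAs were lower than higher at 48 hours after PHx. Of the 258, 100 were lower (quasi-likelihood test of edgeR, Benjamini-Hochberg adjusted p below 0.05), 32 were higher and 126 did not pass. Over all 17037 genes tested, 19.3% were called lower and 21.4% higher, against 38.8% and 12.4% of the lincRNAs. With a change of at least 1 on the log2 scale as well, 66 lincRNAs were lower and 24 higher, beside 7.94% and 9.69% of all genes tested. The median log2 fold change (48 hours over 0 hours) of the lincRNAs was -0.42, with quartiles at -1.02 and 0.18, and that of all genes tested was -0.00325. The test used TMM normalization, which sets the typical gene's change near 0. With library size alone, 75 lincRNAs were lower and 41 higher, which moved the higher share of the calls from 24.2% to 35.3%, while that of all calls moved from 52.5% to 71.6%, and the median of the lincRNAs became -0.21. That scaling shifts all genes by about the same amount, and the median of all genes became 0.20.

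**Figure D1:**
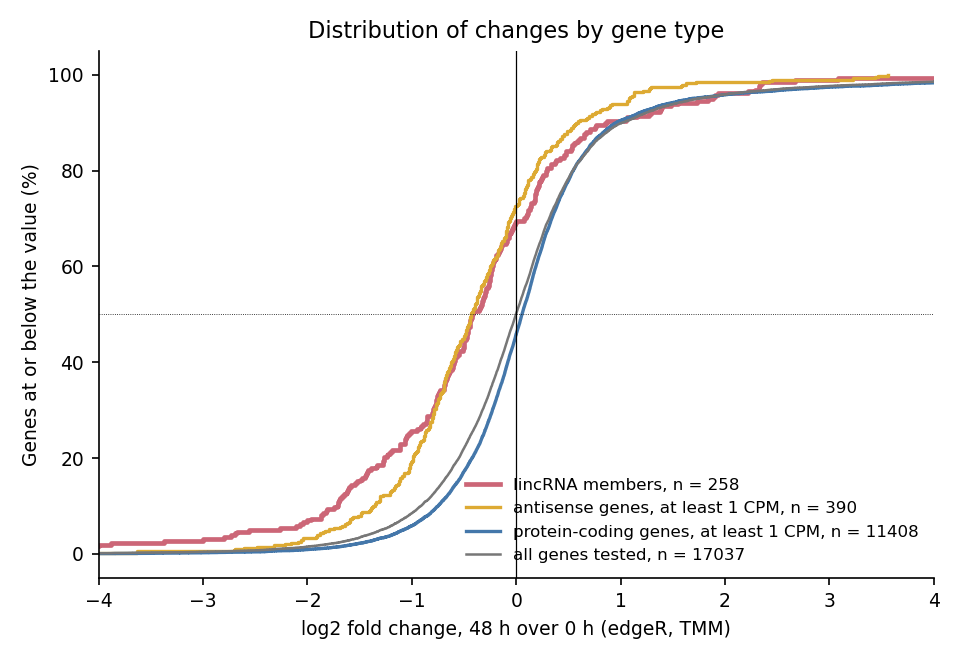
Cumulative distributions of the log2 fold change at 48 hours after PHx over 0 hours, with the percentage of genes at or below each value on the vertical axis. The curve of the 258 lincRNAs crosses 50% at -0.42, beside -0.43 for antisense genes of at least 1 CPM, 0.05 for protein-coding genes of at least 1 CPM and -0.00325 for all genes tested; a few values beyond 4 in either direction lie outside the axis.

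All libraries of a time point lay below all of the other for 112 lincRNAs that were lower and 37 that were higher, beside 25.0% and 27.8% of all genes tested in those directions. The called lincRNAs whose libraries did overlap were Gm26762, Gm40264, Tmem250-ps, Gm27216 and AC102496.1, named here after their values were seen. Each lost its call when some library was left out, with the highest adjusted p at 0.0786 for Gm26762 (without replicate 2 of the 0-hour group), 0.165 for Gm40264 (replicate 1 of that group), 0.119 for Tmem250-ps (replicate 3 of that group), 0.178 for Gm27216 and 0.0628 for AC102496.1 (both without replicate 2 of the 48-hour group). A mean of at least 1 CPM was reached at both time points by 209 lincRNAs, of which 74 were lower and 20 higher, beside 19.3% and 21.4% of all genes tested. Another 29 reached it only at 0 hours and 20 only at 48 hours. No lincRNA was at 0 in every library of a time point.

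Protein-coding genes of at least 1 CPM did not show this asymmetry, with 20.1% of 11408 lower and 26.2% higher. Antisense genes, another class of long noncoding RNA, had 34.9% of 390 lower and 8.21% higher at the same level. LincRNAs that were tested but lay under 1 CPM had 49 of 274 lower and 47 higher, with a median log2 fold change of -0.11. To compare genes of like level, the lincRNAs were also read against protein-coding genes within ranges of mean CPM. Between 1 and 2 CPM, 26 of 97 lincRNAs were lower and 8 higher, beside 13.2% and 20.3% of protein-coding genes. Between 5 and 20 CPM, 31 of 58 lincRNAs were lower and 8 higher, beside 15.7% and 30.4%. Of the 14 at 20 CPM or more, 9 were lower and 2 higher. These shares are descriptions, and no test of the difference between gene classes was made.

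**Figure D2:**
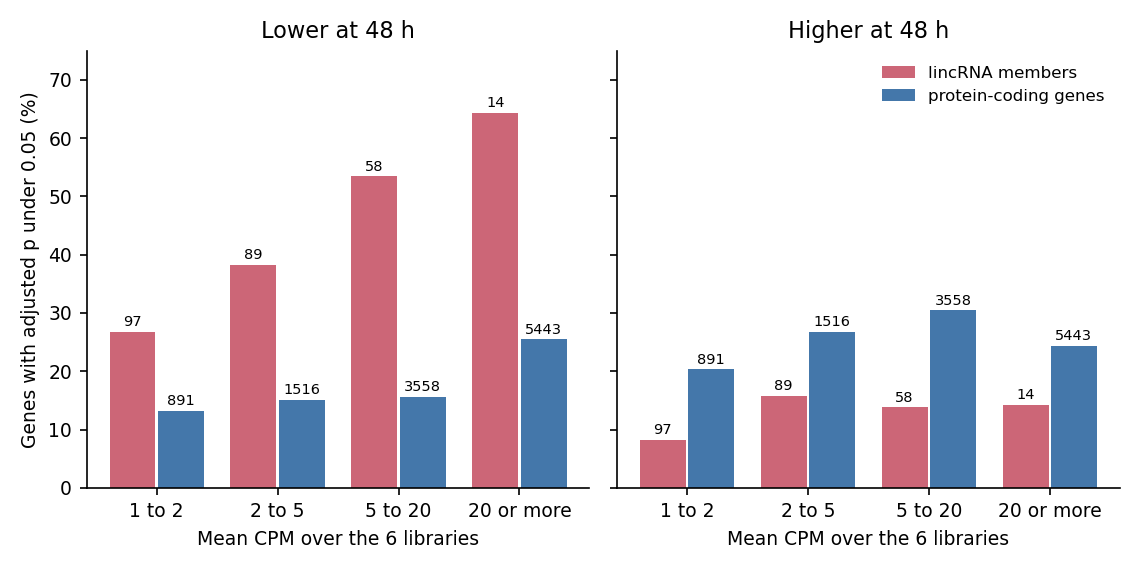
Percentage of lincRNAs and of protein-coding genes with an adjusted p under 0.05, lower (left) and higher (right) at 48 hours after PHx, by mean CPM over the 6 libraries, with the number of genes tested above each bar. The lincRNA bars for lower genes stand above the protein-coding bars in all 4 ranges, from 26.8% against 13.2% at 1 to 2 CPM to 64.3% against 25.5% at 20 CPM or more.

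Most of the 258 are little-described loci. Their symbols begin with Gm for 147, end with Rik for 71 and are clone names for 17, while 23 have other names. They lay on 20 chromosomes, with 3 on X and 0 on Y. The median exonic length was 2319.5 bases, and 29 had a single exon. Per kilobase of exon, the median level was 1.40 TMM-normalized CPM (the CPM after TMM scaling), against 3.08 for the protein-coding genes tested. The lower, higher and uncalled lincRNAs were alike in the GC content of their longest transcript, with medians of 46.6%, 47.0% and 46.3%. Median gene length was 10.2 kb for the lower, 7.36 kb for the higher and 6.00 kb for the uncalled, and median distance to the nearest coding start was 28.5 kb for the lower and 22.9 kb for the higher. The spread between replicates was also compared, as a description. Between 1 and 20 CPM, the median ratio of the highest to the lowest library was 1.44 at 0 hours and 1.46 at 48 hours over 244 lincRNAs, against 1.31 and 1.25 over 5965 protein-coding genes.

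Intergenic describes the annotation rather than each locus. Exons of 76 of the 258 overlapped another GENCODE gene, on the same strand for 20 and on the opposite strand for 63. Whether reads were counted by strand is not given in the sources used here, so reads of a lincRNA and of a gene on its opposite strand could not be separated for these 63. Among the 182 with no overlapping exon, 69 were lower and 26 higher, beside 19.3% and 21.4% of all genes tested. RefSeq holds 153 of the 258 by gene ID or symbol, as long noncoding RNA for 141 and as protein-coding for 8. The body of a RefSeq protein-coding gene overlapped 94 of the 258 by any length on either strand, of which 34 were lower and 6 higher. Among the 164 with no such overlap, 66 were lower and 26 higher.

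The count-based level was dominated by Gm26917. This gene (chr17:39843013-39846341, plus strand, GRCm38) took 7.45%, 7.07% and 5.62% of all gene counts at 0 hours and 7.30%, 6.23% and 7.38% at 48 hours. Its libraries overlapped, and its log2 fold change was -0.14 ± 0.22 (SE) with an adjusted p of 0.632. It ranked first among all genes by mean CPM, its longest transcript held 69.1% GC, and the next annotated gene of type rRNA, CT010467.1, starts 12 bases after its end on the other strand. Whether its reads came from ribosomal RNA left in the libraries was not tested. The summed share of all 258 lincRNAs was 6.94% ± 0.986 (SD, n = 3) before PHx and 7.15% ± 0.629 (SD, n = 3) 48 hours after it (two-sided exact permutation p = 0.7). Without Gm26917 the share was 0.225% ± 0.0258 (SD, n = 3) at 0 hours and 0.181% ± 0.0235 (SD, n = 3) at 48 hours, with an exact permutation p of 0.1, the smallest that 3 libraries against 3 allow. The next 5 lincRNAs by counts held 35.8% of what remained.

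Among lincRNAs with a mean of at least 2 CPM and no overlap between time points, the 8 largest decreases ranged from 6.97-fold to 25.2-fold. Gm36041 fell most, from 13.4, 13.6 and 10.9 TMM-normalized CPM at 0 hours to 0.327, 0.447 and 0.714 at 48 hours. Its log2 fold change was -4.66 ± 0.25 (SE) with an edgeR adjusted p of 3.48e-07. Its nearest coding gene, Avpr1a, which encodes a vasopressin receptor and starts 61.6 kb away, had a log2 fold change of -0.28 with an adjusted p of 0.442. Gm47818 read 10.6, 8.25 and 8.67 at 0 hours and 0.297, 0.783 and 0.171 at 48 hours, a log2 fold change of -4.44 ± 0.37 (SE), which was -5.29 without replicate 2 of the 48-hour group. Its nearest coding start belongs to Elovl5, a fatty acid elongase, which also fell (-1.26, adjusted p 0.000168). Gm12718 fell by 4.14, Gm31583 by 4.0 and AC127342.1 by 3.88 on the log2 scale. Gm31583 was among the more abundant of the group, at 29.3, 17.3 and 20.1 TMM-normalized CPM at 0 hours and 0.920, 1.48 and 1.74 at 48 hours. It starts 101 kb from Bcl6, a transcriptional repressor in which the difference did not pass (-0.32, adjusted p 0.166).

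On chromosome 19, 2 lincRNAs with overlapping exons near Klf9, a transcription factor gene responsive to glucocorticoids, were lower together. AC121973.1 read 21.5, 20.4 and 13 TMM-normalized CPM at 0 hours and 1.40, 1.06 and 2.83 at 48 hours, and C330002G04Rik on the other strand read 4.43, 5.25 and 2.83 and then 0.534, 0.420 and 0.828. Their log2 fold changes were -3.37 ± 0.33 (SE) and -2.80 ± 0.32 (SE), and Klf9 itself fell by 1.03. As their exons overlap, reads of the pair may be shared where strand was not used. 9030616G12Rik, 10.2 kb from the start of Mettl7b, fell from between 6.20 and 8.31 to between 0.594 and 1.34 TMM-normalized CPM, 8.02-fold.

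The increases were smaller in this group, from 3.74-fold to 8.49-fold. Gm42031 rose most, from 2.45, 1.16 and 1.48 TMM-normalized CPM at 0 hours to 17.1, 17 and 8.97 at 48 hours (log2 fold change 3.09 ± 0.32 SE, edgeR adjusted p 3.68e-05). Gm26625 partly overlaps Ezh2 on the opposite strand, the gene of the histone H3 lysine 27 methyltransferase of Polycomb repressive complex 2. It read 0.613, 0.870 and 0.542 at 0 hours and 3.74, 4.70 and 4.51 at 48 hours, a log2 fold change of 2.67 ± 0.25 (SE), and Ezh2 rose by 2.49. Only 6.86% of the exonic bases of Gm26625 overlapped exons on the opposite strand, and whether its counts came from Ezh2 transcripts was not tested. AU020206 was the steadiest of the 8 at 48 hours, with 1.43, 2.16 and 1.90 before and 9.59, 9.37 and 8.68 after, a 5.02-fold rise.

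The others that rose were Gm4316, 1200007C13Rik, Gm26809 and Gm17767, with log2 fold changes of 2.33, 2.29, 2.22 and 1.90, and Gm42047. Gm42047 was the most abundant riser and the most variable. It read 19.4, 89.2 and 29.5 TMM-normalized CPM at 0 hours and 140, 344 and 224 at 48 hours, so that replicate 2 was highest at both time points. Its log2 fold change was 2.36 ± 0.51 (SE), with an edgeR adjusted p of 0.00409, and it was 3.26 without replicate 2 of the 0-hour group and 1.96 without replicate 2 of the 48-hour group. A RefSeq protein-coding gene, Gm42048, overlaps this locus. Gm4316 moved against its nearest coding gene, the sulfotransferase gene Sult5a1, which fell by 2.06.

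**Figure D3:**
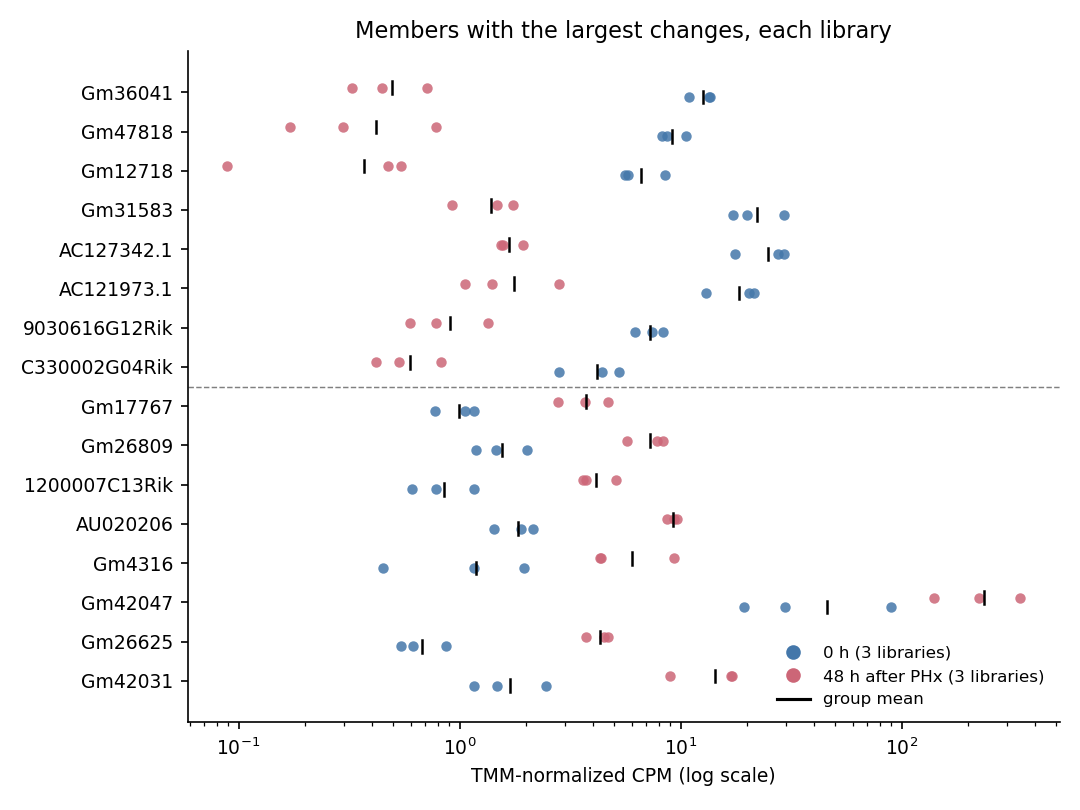
TMM-normalized CPM on a log scale of the 16 lincRNAs with the largest decreases (above the dashed line) and increases (below it), with 3 libraries at 0 hours, 3 libraries at 48 hours after PHx and black ticks at the group means. No lincRNA shown has overlapping time points; the decreases reach 25.2-fold in Gm36041 and the increases 8.49-fold in Gm42031.

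Below that abundance limit, 2 lincRNAs with larger increases and 1 with a large decrease were chosen after their values were seen. AC132253.6, 3.30 kb downstream of Incenp on its strand, had 3, 1 and 1 counts at 0 hours and 84, 144 and 78 at 48 hours. The ratio after TMM scaling of the library sizes was 54.9, with a 95% exact counting interval from 23.3 to 170, and 94.1 (25.8 to 780) without replicate 1 of the 0-hour group. Each 0-hour library was at or under 3 counts. Incenp, which encodes a subunit of the chromosomal passenger complex of mitosis, rose by 4.56 on the log2 scale. Lockd, 3.58 kb downstream of Cdkn1b, had 0, 6 and 2 counts at 0 hours and 81, 146 and 102 at 48 hours, a ratio on the same scale of 36.9 with a 95% exact counting interval from 18.5 to 86.1, and 98.6 (27.1 to 817) without replicate 2 of the 0-hour group. Cdkn1b, which encodes the cell cycle inhibitor p27, rose less, by 0.68. In the other direction, Gm45301 had 98, 50 and 74 counts at 0 hours and 3, 4 and 3 at 48 hours, 24.8-fold fewer on that scale with a 95% exact counting interval from 13.2 to 52.4. It starts 33.8 kb from Ppp1r3b, a glycogen-targeting subunit of protein phosphatase 1, which fell by 1.53. These intervals cover counting error only.

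RefSeq promoter windows, from 250 bases before to 50 bases after a gene's start on GRCm38.p6, were matched to 114 of the 258, comprising 43 lower, 16 higher and 55 uncalled. They were poorer in CpG than those of other genes. An observed-over-expected CpG ratio of at least 0.6 was found in 35.1% of the lincRNA windows and in 69.4% of the 10511 windows of genes tested. Windows of lower, higher and uncalled lincRNAs were alike in this, at 34.9%, 37.5% and 34.5%. Each window was searched on both strands for the letters of known motifs. GGGCGG (SP1) was found in 30.7% of the lincRNA windows and 62.1% of those of all genes tested, and TATAAA (TBP) in 17.5% and 7.91%. The C/EBP letters TTGCNNAA stood in 9 of 43 windows of lower lincRNAs, 1 of 16 of higher and 6 of 55 of uncalled ones. Of the windows of all genes tested, 8.60% held them. The STAT letters TTCNNNGAA stood in 6 of 43, 0 of 16 and 3 of 55, and in 6.89% of all. The median window held 52.0% GC for the lincRNAs and 60.3% for all genes tested, and the part of composition in these shares was not tested. CAAAGTCCA (HNF4A), TGTTTAC (FOXA), TTTCCCGC (E2F), TTTGAA (CHR), TGANTCA (AP-1), CCAAT and CACGTG (E-box) were also searched, as was an HNF1 motif; TTTGAA can overlap the STAT letters. In lower and higher windows, FOXA letters stood in 3 of 43 and 0 of 16 (2.63% of all genes tested). E-box letters stood in 8 of 43 and 2 of 16 (10.1%), and CCAAT in 12 of 43 and 8 of 16 (38.8%). CHR letters stood in 10 of 43 and 4 of 16 (12.5%), and AP-1 letters in 3 of 43 and 2 of 16 (5.01%). TATAAA stood in 9 of 43 and 5 of 16, and GGGCGG in 12 of 43 and 7 of 16. E2F and HNF4A letters each stood in 1 of 114 lincRNA windows (2.04% and 0.514%), and HNF1 letters in 2 of 114 (0.419%).

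The windows of 3 of the strongest decreases and of 2 increases are shown, chosen with their composition in view, so they do not represent each direction. All 3 decreases shown hold C/EBP letters, which stood in 9 of 43 windows of lower lincRNAs. Both increases shown hold SP1 and CCAAT letters, which stood in 7 and 8 of 16 windows of higher lincRNAs. Capitals mark letters that matched a motif other than CHR on either strand: C/EBP in Gm36041 (chr10:122386645-122386944, plus strand) and Gm31583 (chr16:24090016-24090315, minus strand). In C330002G04Rik (chr19:23075857-23076156, minus strand) they mark STAT, C/EBP, E-box and AP-1, and in AU020206 (chr7:75782071-75782370, minus strand) and Lockd (chr6:134928842-134929141, plus strand) SP1 and CCAAT.
Gm36041: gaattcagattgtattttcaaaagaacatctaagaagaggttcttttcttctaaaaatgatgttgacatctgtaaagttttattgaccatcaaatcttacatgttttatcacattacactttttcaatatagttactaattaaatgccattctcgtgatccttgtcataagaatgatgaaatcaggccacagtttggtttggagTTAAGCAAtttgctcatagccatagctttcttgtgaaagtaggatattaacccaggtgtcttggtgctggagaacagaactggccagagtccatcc
Gm31583: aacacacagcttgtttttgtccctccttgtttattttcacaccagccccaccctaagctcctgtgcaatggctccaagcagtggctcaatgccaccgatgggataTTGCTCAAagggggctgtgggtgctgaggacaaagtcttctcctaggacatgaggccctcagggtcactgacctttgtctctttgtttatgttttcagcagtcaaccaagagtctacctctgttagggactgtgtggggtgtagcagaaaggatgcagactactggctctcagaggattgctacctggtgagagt
C330002G04Rik: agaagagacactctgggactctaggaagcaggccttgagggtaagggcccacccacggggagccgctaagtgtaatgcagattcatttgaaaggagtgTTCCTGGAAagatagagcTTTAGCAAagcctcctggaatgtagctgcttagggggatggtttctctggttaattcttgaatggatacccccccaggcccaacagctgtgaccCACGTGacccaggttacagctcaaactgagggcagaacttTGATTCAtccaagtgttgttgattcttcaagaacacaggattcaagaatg
AU020206: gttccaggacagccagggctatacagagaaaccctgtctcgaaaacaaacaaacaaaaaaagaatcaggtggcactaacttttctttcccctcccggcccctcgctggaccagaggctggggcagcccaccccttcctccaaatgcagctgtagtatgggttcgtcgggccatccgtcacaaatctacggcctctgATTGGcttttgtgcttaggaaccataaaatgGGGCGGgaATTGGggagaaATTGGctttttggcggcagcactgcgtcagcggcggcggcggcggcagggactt
Lockd: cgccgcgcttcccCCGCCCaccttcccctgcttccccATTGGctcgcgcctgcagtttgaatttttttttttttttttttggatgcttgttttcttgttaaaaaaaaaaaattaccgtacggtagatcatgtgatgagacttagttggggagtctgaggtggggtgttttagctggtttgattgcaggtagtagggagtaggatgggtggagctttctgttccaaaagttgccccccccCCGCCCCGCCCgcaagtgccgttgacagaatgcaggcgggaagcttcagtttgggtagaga
A match of letters is a description and was not tested for binding.

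Several of the lincRNAs carry small RNAs, whose levels were not measured by these libraries. Of those whose body holds an annotated microRNA gene on the same strand, 6 were lower, 1 was higher and 5 did not pass, beside 19.3% lower and 21.4% higher of all genes tested and 38.8% lower and 12.4% higher of the 258. E130102H24Rik, which holds Mir101a, read 4.97, 4.93 and 4.70 TMM-normalized CPM at 0 hours and 1.22, 1.59 and 1.31 at 48 hours. Its log2 fold change was -1.82 ± 0.19 (SE), and the time points lay well apart. Gm27028, a 399-base gene around Mir30c-2, fell from between 2.66 and 3.54 to between 1.23 and 1.81. Gm12718, described above, holds Gm23064, an uncharacterized microRNA gene, and Snhg20, a small nucleolar RNA host, holds Mir6516 and had a log2 fold change of -0.66, a call lost in 4 alternatives given below. Gm36283, with Gm25591 inside, rose from between 0.272 and 0.361 to between 1.48 and 1.86, 5.04-fold, and lies 3.01 kb downstream of Pawr, an apoptosis gene that rose by 1.29.

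The hosts of 2 well-known clusters did not pass. Mir17hg is the primary transcript of the miR-17-92 cluster, which promotes proliferation in many cell types. It read 2.31, 5.19 and 3.01 TMM-normalized CPM at 0 hours and 3.59, 2.13 and 3.08 at 48 hours, overlapping (-0.26 ± 0.31 SE, edgeR adjusted p 0.537). 6720427I07Rik, which holds 3 let-7 genes, read 5.07, 7.89 and 4.46 and then 5.31, 4.84 and 6.51 (-0.06 ± 0.23 SE). Ftx, with Mir374b and Mir421 inside, 2900076A07Rik, with Mir1839, and 6030443J06Rik, with Gm44363, did not pass either, at 0.18, -0.30 and -0.51, although 6030443J06Rik passed with upper-quartile factors (adjusted p 0.0495) and without replicate 2 of the 0-hour group (0.0364). Mature RNAs from 2 of the lower hosts and some of those of these clusters are given from RefSeq (GRCm38.p6) with the seed, bases 2 to 8, in capitals. MiR-101a-3p (chr4:101346957-101346977, minus strand) and miR-30c-5p (chr1:23291714-23291736, plus strand) come from the lower hosts E130102H24Rik and Gm27028. MiR-17-5p (chr14:115043684-115043706) and miR-20a-5p (chr14:115044183-115044205), both on the plus strand, share a seed, as do miR-19a-3p (chr14:115044048-115044070) and miR-19b-3p (chr14:115044358-115044380). Let-7a-5p (chr13:48538239-48538260), let-7d-5p (chr13:48536078-48536099) and let-7f-5p (chr13:48537889-48537910) share another, on the minus strand.
miR-101a-3p: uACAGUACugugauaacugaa
miR-30c-5p: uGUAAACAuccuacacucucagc
miR-17-5p: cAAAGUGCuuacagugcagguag
miR-20a-5p: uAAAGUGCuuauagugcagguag
miR-19a-3p: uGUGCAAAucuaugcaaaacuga
miR-19b-3p: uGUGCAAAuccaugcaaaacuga
let-7a-5p: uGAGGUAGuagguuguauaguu
let-7d-5p: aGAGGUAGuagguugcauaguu
let-7f-5p: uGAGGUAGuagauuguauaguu
The microRNAs shown for lower and for uncalled hosts have different seeds.

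Small nucleolar RNA (snoRNA) hosts are spliced transcripts whose introns release RNAs that guide the modification of other RNAs. Snhg6, the host of Snord87, rose from 1.77, 1.61 and 1.90 TMM-normalized CPM to 3.21, 3.33 and 2.08 (log2 fold change 0.71 ± 0.24 SE, edgeR adjusted p 0.0356), and its call was lost in 7 alternatives, among them leaving out any 0-hour library (adjusted p 0.0811, 0.0866 and 0.0644) or replicate 1 or 2 of the 48-hour group (0.115 and 0.143). 9430037G07Rik, with Gm23017 inside, rose from between 3.70 and 5.35 to between 7.23 and 13.2, and its exons overlap the small RNA. Snhg20 read 2.66, 3.0 and 2.95 and then 1.87, 1.62 and 1.97, with an adjusted p of 0.0229, which became 0.0980 with library size alone, 0.0509 with the replicate number as a block, 0.0615 without replicate 3 of the 0-hour group and 0.0858 without replicate 2 of the 48-hour group.

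**Figure D4:**
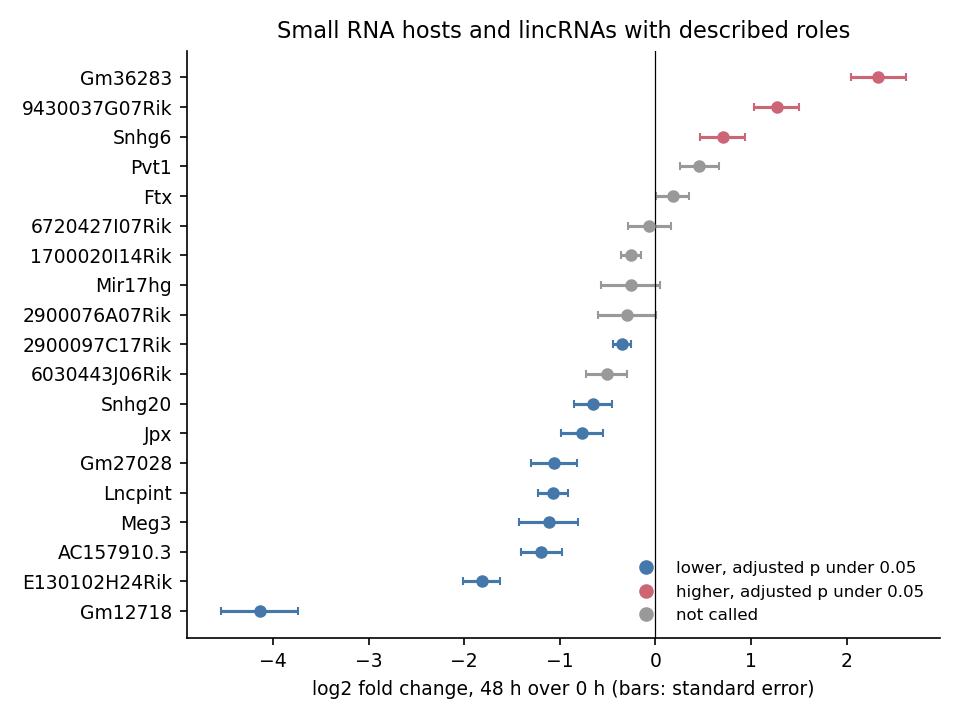
Log2 fold change (48 hours after PHx over 0 hours) with its standard error for lincRNAs that hold a microRNA or snoRNA gene and for lincRNAs with described roles, colored by the edgeR call at an adjusted p under 0.05. The values run from -4.14 for Gm12718 to 2.33 for Gm36283, with Mir17hg, 6720427I07Rik, Ftx, Pvt1, 1700020I14Rik, 2900076A07Rik and 6030443J06Rik not called.

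Of the 10 listed lincRNAs with described roles, 5 were lower, 1 was higher (Snhg6) and 4 did not pass, beside 19.3% lower and 21.4% higher of all genes tested, and the calls of Jpx, Snhg20, Norad and Snhg6 were lost in some alternatives. Lncpint, a p53-induced transcript with growth-restraining activity, read 96.9, 106 and 68.3 TMM-normalized CPM at 0 hours and 45.8, 44.9 and 38.6 at 48 hours, a 2.10-fold decrease (log2 fold change -1.07 ± 0.16 SE, adjusted p 0.000435). Meg3, the maternally expressed RNA of the Dlk1-Dio3 imprinted domain, read 5.58, 9.80 and 3.98 and then 2.70, 3.72 and 2.48. Its log2 fold change was -1.12 ± 0.31 (SE), and the lowest library at 0 hours lay just above the highest at 48 hours. Without replicate 2 of the 0-hour group, the change of Meg3 was -0.69 (edgeR adjusted p 0.0490). 2900097C17Rik (Norad), a cytoplasmic RNA that binds Pumilio proteins, was among the steadiest, at 70.5, 68.6 and 74.4 and then 53.4, 58.7 and 55.7, a 1.27-fold decrease (adjusted p 0.0155). Its call was lost with library size alone (-0.14) and without replicate 3 of the 0-hour group (adjusted p 0.0590).

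On the X chromosome, Jpx, an activator of Xist, fell by 0.77 on the log2 scale (adjusted p 0.0173), while the adjacent Ftx did not pass. The call of Jpx was lost with library size alone and without replicate 2 of the 0-hour group (adjusted p 0.0577), replicate 1 of the 48-hour group (0.0539) or replicate 2 of that group (0.0583). Pvt1, the neighbor of the proto-oncogene Myc, read 4.22, 3.03 and 2.74 TMM-normalized CPM at 0 hours and 4.42, 4.42 and 4.88 at 48 hours. Its log2 fold change of 0.46 did not pass (adjusted p 0.0917; 0.0247 with library size alone and 0.0295 without replicate 1 of the 0-hour group), and neither did that of Myc, at 0.75 (adjusted p 0.223). 1700020I14Rik (Oip5os1, also called Cyrano), which carries a site for miR-7, had a log2 fold change of -0.26 (adjusted p 0.0736; 0.0206 with upper-quartile factors, 0.0320 with TMM factors from protein-coding genes and 0.0438 without replicate 1 of the 48-hour group). Of other lincRNAs with known roles, H19, the imprinted growth-related RNA of fetal liver, averaged 0.135 CPM, Xist 0.204 CPM and Mirg 0.954 CPM, all below the threshold.

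Of the 5 most counted lincRNAs after Gm26917, 4 were lower and Gm42047, described above, was higher, beside 19.3% lower and 21.4% higher of all genes tested. AC157910.3 (chr18:65244287-65252621, plus strand) holds Mir122, the gene of the dominant microRNA of hepatocytes. It read 357, 572 and 343 TMM-normalized CPM at 0 hours and 171, 156 and 229 at 48 hours, 2.29-fold lower with an edgeR adjusted p of 0.00152 and no overlap. Gm26584 read 207, 238 and 118 and then 65.2, 55.6 and 52.9, 3.24-fold lower. It overlaps the cationic amino acid transporter gene Slc7a2 on the opposite strand over 19.7% of its exonic bases, and Slc7a2 fell by 0.66. AC117816.1 lies 1.09 kb downstream of A1cf, an RNA-binding cofactor of Apob mRNA editing, and overlaps the RefSeq body of that gene. It read 115, 111 and 128 and then 60.6, 78.1 and 93.7, a log2 fold change of -0.60 ± 0.15 (SE) that did not pass with library size alone (adjusted p 0.0814), and A1cf fell by 0.76. Per kilobase of exon, AC117816.1 stood at 42.8 TMM-normalized CPM, AC157910.3 at 39.0 and Gm26584 at 38.1. 9030622O22Rik, chosen after its values were seen, lies 2.67 kb downstream of Foxa2, which encodes a pioneer factor of liver genes. It read 62.2, 63.8 and 42.8 at 0 hours and 10.6, 15.5 and 20.6 at 48 hours, 3.62-fold lower, while Foxa2 did not pass (-0.24, adjusted p 0.301).

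The lincRNAs were next set against the protein-coding gene with the nearest start. Both partners were tested in 232 pairs and both were called in 62. The direction was the same in 45 of these (72.6%), with 32 pairs both lower and 13 both higher. In 14 pairs the lincRNA was lower and the coding gene higher, and in 3 the reverse. Among tested protein-coding genes and their own nearest coding gene, 66.9% of 2080 pairs had the same direction, so the lincRNA share lay near that of coding neighbors. Across all 232 pairs the Pearson correlation of the log2 fold changes was 0.27, and 0.20 across 9711 coding pairs; pairs share libraries and some share a coding gene. With starts within 10 kb, 16 of 19 lincRNA pairs had the same direction, beside 72.1% of coding pairs.

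Examples of pairs that were lower together follow, picked from the called ones. Gm44117 starts 1.11 kb from the start of Klf15 and overlaps the RefSeq body of that gene, a regulator of gluconeogenesis and amino acid catabolism. It read 8.51, 11.2 and 8.73 TMM-normalized CPM and then 1.45, 1.29 and 1.71, and Klf15 fell by 0.85. Gm26608 starts 258 bases from Insig1, a sterol-sensing regulator of cholesterol synthesis, and fell by 0.86 where Insig1 fell by 1.05. Gm26669 and 1300014J16Rik start 4.98 and 2.85 kb from the start of Zfp36l1, which encodes an mRNA decay factor, and all 3 genes fell, by 1.04, 1.39 and 0.98. Gm15889 fell by 1.81 beside Herpud1, a gene of the endoplasmic reticulum stress response, which fell by 1.09.

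LincRNAs just downstream of a coding gene on the same strand were also set against that gene. Within 5 kb, 25 lincRNAs had a tested upstream coding gene, both were called in 8 pairs, and all 8 had the same direction, 5 lower and 3 higher. Coding genes placed in the same way had the same direction in 213 of 310 pairs (68.7%). The correlation of log2 fold changes across the 25 pairs was 0.77, and 0.27 across the 1500 coding pairs. Besides the Incenp, Cdkn1b, Pawr and A1cf neighbors, Gm38079, picked after its values were seen, began 232 bases after Tlr5, the flagellin receptor gene, and fell by 1.33 where Tlr5 fell by 1.5. Whether such lincRNAs are transcripts that read through from the gene was not tested. Without these lincRNAs, 92 of the others were lower and 29 higher, beside 19.3% and 21.4% of all genes tested. Of the 30 that start within 1 kb of a coding start on the other strand, both partners were called in 5, with the same direction in 3, beside 291 of 400 coding pairs placed in the same way.

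**Figure D5:**
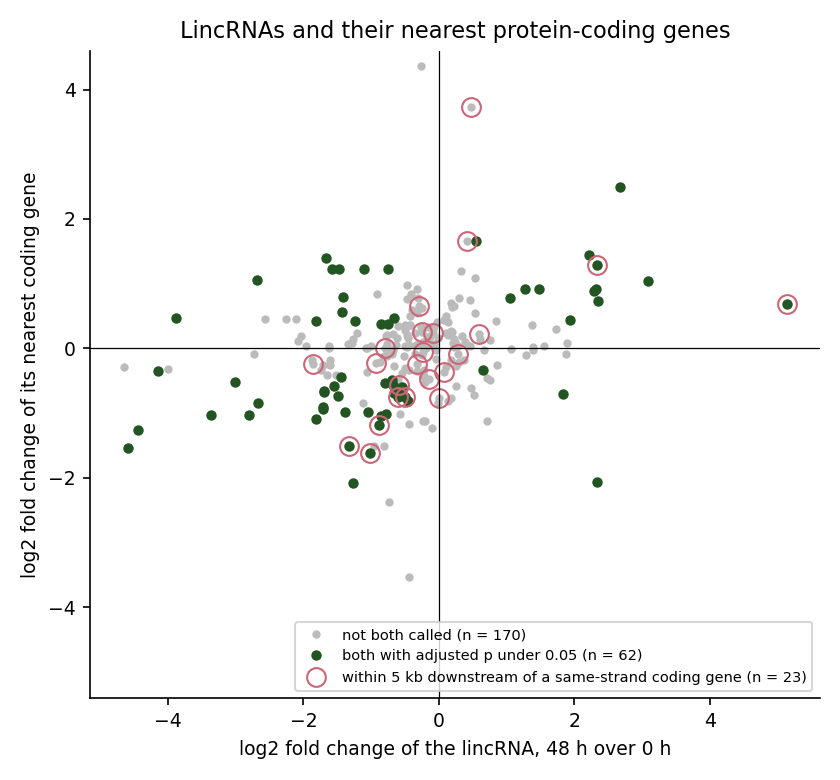
Log2 fold change of each lincRNA (horizontal) against that of the protein-coding gene with the nearest start (vertical), 48 hours after PHx over 0 hours, for the 232 pairs tested. The 62 pairs with both partners called are dark, 45 of them in the lower left or upper right, and rings mark lincRNAs within 5 kb downstream of a coding gene on the same strand.

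Some lincRNAs lay close together. Within 200 kb of each other, 58 of them formed 25 groups, and no group held calls in both directions. In 9 groups at least 2 were called, all of them lower. As 100 of the 132 calls were lower and some groups share exons, this is a description, and the groups named below were picked after their values were seen. On chromosome 12, Gm31508, 4833405L11Rik and Gm31333 fell by 2.11, 2.26 and 2.56 on the log2 scale (by 2.71 and 3.10 for the first and second without replicate 1 of the 48-hour group), while Eipr1, the nearest coding gene, did not pass (0.45, adjusted p 0.0915). Gm31333 read 12.4, 13.1 and 11.5 TMM-normalized CPM at 0 hours and 2.70, 1.37 and 2.2 at 48 hours. On chromosome 10, 4732465J04Rik was among the least variable, at 24.0, 24.2 and 23.1 and then 6.35, 6.49 and 6.60, 3.66-fold lower, and its neighbor Gm47719 was 6.45-fold lower.

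Near Bicc1, an RNA-binding protein gene, 3 lincRNAs moved against it. The larger of 2 genes that share the symbol C730027H18Rik (ENSMUSG00000112366.1) read 17.9, 19.3 and 15.7 TMM-normalized CPM and then 5.37, 7.16 and 6.45. The smaller (ENSMUSG00000112189.1) and 1700113B09Rik fell by 1.59 and 1.11, whereas Bicc1 rose by 1.23. Both C730027H18Rik genes lie on the same strand over shared ground, so their counts are uncertain. AI480526 and 4932422M17Rik, on opposite strands beside Setd1b, a histone H3 lysine 4 methyltransferase gene, fell by 1.71 and 1.61, and Setd1b did not pass at -0.26. E130102H24Rik and 0610043K17Rik both fell, by 1.82 and 1.24, and their nearest coding gene Ak4, a mitochondrial adenylate kinase gene, rose by 0.42.

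The machinery that ends and degrades noncoding transcripts was examined from a list of its genes drawn up by function, with earlier results of these data known. Of 43 such genes tested, 19 were higher at 48 hours, 3 were lower and 21 did not pass, with a median log2 fold change of 0.29. Of all genes tested, 21.4% were higher and 19.3% lower, and of the protein-coding genes tested 25.3% were higher and 18.8% lower. The genes named here were picked after their values were seen. Of 13 genes of the RNA exosome and its cofactors, 6 were higher and 1 lower. Mphosph6, an exosome cofactor, rose by 1.27, the core subunit Exosc8 by 1.09 and the catalytic subunit Dis3 by 0.96, while the core subunit Exosc5 fell by 0.59. Of 14 Integrator subunits, which cut nascent transcripts, 5 were higher. Pabpn1, the nuclear poly(A)-binding protein gene that takes part in the decay of polyadenylated nuclear RNA, fell by 0.82, and Zcchc7, a subunit of an exosome adaptor, fell by 0.50. Whether these levels bear on the lincRNAs was not tested.

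Levels of marker genes of hepatocytes and other cells were summed for each library. The summed level of 10 sinusoidal endothelial markers was 348 to 500 TMM-normalized CPM at 0 hours and 246 to 270 at 48 hours, and all 10 were lower. For 10 hepatocyte markers it was 107122 to 125139 and 68128 to 77713, with 4 of 10 lower. Kupffer cell and macrophage markers summed to 78.3 to 118 and 112 to 137, with 2 of 10 higher. Stellate cell markers summed to 66.8 to 110 and 60.3 to 72.8, with 2 higher and 1 lower of 9 tested. Cholangiocyte markers summed to 9.15 to 20.7 and 16.3 to 26.0, with 1 higher of 2 tested. These calls stand beside 21.4% higher and 19.3% lower of all genes tested. Neutrophil markers summed to 0.0903 to 0.408 and 0.594 to 1.06, with 6 of 8 at 3 counts or fewer everywhere. Lymphocyte markers summed to 0.902 to 1.33 and 0.445 to 0.783, with 7 of 10 at 3 counts or fewer everywhere, and red cell markers to 55.9 to 86.6 and 18.7 to 40.4. No neutrophil marker was tested, and 1 lymphocyte and 1 red cell marker were tested, both lower. The time points did not overlap for the endothelial, hepatocyte, neutrophil, lymphocyte and red cell lists, and overlapped for the Kupffer cell, stellate cell and cholangiocyte lists. In bulk RNA, fewer cells of a type and less RNA per cell cannot be told apart, and the part of these cells in the lincRNA changes was not tested.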

How the data were processed

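The authors deposited 1 file per library with raw counts of reads per gene, not normalized. The submitters' processing notes name FastQC 0.11.5, Trim Galore 0.6.4, STAR 2.6, HTSeq 0.12.4 and DESeq2 with mm10; the counting mode and strand setting are not given in the sources used here. Gene identifiers are those of GENCODE M21 on GRCm38, from which types, exons and positions were taken. Lines for reads not assigned to a gene were left out of library totals; reads on no gene made up 24.3% to 32.7% and ambiguous reads 4.27% to 5.29% of the reads listed.

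Libraries were grouped by their labelled time point. The test took genes that reached 10 counts in 3 or more libraries and was run in edgeR 4.0.16 (R 4.3.3) with TMM factors, which ran from 0.914 to 0.950 at 0 hours and 1.02 to 1.11 at 48 hours, the quasi-likelihood test and Benjamini-Hochberg adjustment over all genes tested. The standard error is the absolute log2 fold change divided by the square root of F. P-values measure the spread between 3 preparations per time point. Library shares were compared by exact permutation. At these depths 3 counts or fewer were treated as the floor, and ratios that involve such counts carry an exact counting interval.

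Genes named are the 8 largest called changes in each direction among lincRNAs of at least 2 CPM without overlap, the 6 most counted, a list of lincRNAs with described roles and all microRNA and snoRNA hosts; others are said to be chosen later. The members, lists and tests were chosen with earlier results of these data known. Alternatives were other normalizations, filters and thresholds, DESeq2 1.42.0, limma-voom 3.58.1, the replicate number as a block and leaving out each library; leaving out lincRNAs that overlap RefSeq coding genes or lie downstream of a coding gene was chosen after seeing the data.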

Additional observations from a re-analysis of the deposited data

How the results depend on the processing

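The counts of lincRNAs called lower (100) and higher (32) kept more lower than higher calls in every alternative run: 75 to 107 lower and 30 to 41 higher over the other normalizations, filters and tools, and 86 to 97 lower and 23 to 33 higher when each library was left out in turn. Of the 132 calls, 107 remained with library size alone and 129 to 132 with the other normalizations, filters and tools, 121 with the replicate number as a block and 109 to 125 when each library was left out. Requiring a log2 change of at least 1 left 66 lower, as did leaving out lincRNAs that overlap a RefSeq protein-coding gene; fewer genes are counted by construction. The median log2 fold change (-0.42) was -0.50 with upper-quartile factors, -0.21 with library size alone, -0.47 with TMM factors from protein-coding genes, -0.31 and -0.50 with thresholds of 0.5 and 2 CPM, -0.35 without exon-overlapping lincRNAs, and -0.44 to -0.33 when each library was left out.

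The difference in the share of gene counts (0.215 percentage points, 48 hours minus 0 hours) changed sign with TMM-normalized CPM (-0.746) and without Gm26917 (-0.0440), and ran from -0.346 to 0.583 when each library was left out. Of 600 values of the named lincRNAs under alternatives, 568 kept direction and call, and 25 of 30 called ones kept both throughout; the others were Norad, AC117816.1, Jpx, Snhg20 and Snhg6. Signs changed only in uncalled lincRNAs: Gm26917 (0.0545) and 6720427I07Rik (0.14) with library size alone, and, as libraries were left out in turn, 6720427I07Rik (-0.23 to 0.21), Mir17hg (-0.49 to 0.13), 2900076A07Rik (-0.52 to 0.00669) and 5033430I15Rik (-0.0578 to 0.69). Of these signs, those of 6720427I07Rik, Mir17hg and 2900076A07Rik turned without replicate 2 of 0 hours, that of 6720427I07Rik also without replicate 2 of 48 hours, and that of 5033430I15Rik without replicate 3 of 0 hours. The cause was not tested.

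With the replicate number as a block, 31 lincRNAs were higher and 92 lower, the median was -0.40 and 41 neighbor pairs had the same direction; deviations of same-numbered libraries correlated at 0.0335, -0.0674 and -0.138, so the numbers do not pair the libraries. Of neighbor pairs with both called, 45 of 62 had the same direction, 32 of 53 with library size alone, 31 of 43 without exon-overlapping lincRNAs, and when each library was left out the share lay between 34 of 50 (without replicate 1 of 48 hours) and 39 of 51 (without replicate 1 of 0 hours). Of the decay genes (19 higher), 28 were higher with library size alone, 16 to 19 with the other normalizations, filters and tools or the replicate block, and 15 to 18 when each library was left out.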

Other observations

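Some neighboring pairs moved in opposite directions, and these were picked after their values were seen. Gm34934 starts 97 bases from Samd4, which encodes an RNA-binding protein of the Smaug family, and fell by 0.76 on the log2 scale where Samd4 rose by 1.23 (with library size alone, -0.55 and an adjusted p of 0.0539 for Gm34934). Gm35164 fell by 1.67, and its nearest coding gene, the Wnt ligand gene Wnt5a, 145 kb away, rose by 1.40.

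The lincRNAs named next were also picked after their values were seen. A further increase was seen in 1700001L05Rik, from a mean of 7.67 to 21.5 TMM-normalized CPM (log2 fold change 1.48), with Arfgap3, its nearest coding gene, at 0.92. Replicates of a few lincRNAs spread widely at 48 hours: the highest library stood 6.92 times above the lowest for AC158975.2 and 6.09 times for Gm12718. Genes that GENCODE types as processed transcripts, another noncoding class, had 58 of 251 lower (23.1%) and 33 higher (13.1%), with no CPM limit. That stands beside 19.3% lower and 21.4% higher of all genes tested.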
